A study of Rattus norvegicus with 7 samples.

Results

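The 9 genes described here are those of vitamin D metabolism (Cyp2r1, Cyp27a1, Cyp27b1 and Cyp24a1), the receptor gene Vdr, and 4 genes that the receptor is known to control in some cells (Trpv6, Thbd, Fbp1 and Dusp10). They were picked by name from the 17246 genes of the tables, with their levels in these libraries already known, and all 9 were found. RNA was sequenced from meibomian glands, the lipid-secreting glands of the eyelid, of wild-type female Sprague-Dawley rats aged 3 months. The control group was 4 samples from untreated rats. The UVB group was 3 samples from rats whose shaved upper eyelids received 300 mJ/cm2 of ultraviolet B light in 5 min per day on 5 days, and whose glands were then dissected and snap frozen. Neither group carried a transgene or a deletion, and the labels do not say whether controls were shaved or how long after the last exposure the glands were taken. The data columns name the group but could not be tied to numbered samples, so each library bears a letter here, a to d for controls and a to c for UVB, and a shared letter is not a pair.

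Vitamin D is made in skin when UVB light opens the ring of a cholesterol precursor. Cyp2r1 and Cyp27a1 encode enzymes that add the first hydroxyl group, Cyp27b1 encodes the enzyme that makes the active hormone, and Cyp24a1 encodes the enzyme that starts its breakdown. The hormone binds the receptor encoded by Vdr, which pairs with a retinoid X receptor on DNA, and Cyp24a1 is among the genes most strongly induced by it, in keratinocytes as in kidney. Trpv6 encodes an epithelial calcium channel, Thbd the endothelial and epidermal protein thrombomodulin, Fbp1 the gluconeogenic enzyme fructose bisphosphatase, and Dusp10 a phosphatase that switches off stress-activated MAP kinases.

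The receptor pair binds repeats of a 6-letter half-site. The 250 bases before the start of 4 of the genes are shown as places to look for such half-sites. These 4 genes are the most abundant of the 4 vitamin D hydroxylase genes and those of the activating enzyme, the receptor and the calcium channel. The sequences are from RefSeq, build GRCr8, 5′ to 3′ on the gene's strand, and capitals mark each match, on either strand, to the half-site AGGTCA, to its variant AGTTCA, to its variant GGGTCA or to its variant GGTTCA.
Cyp27a1, chr9:83713282-83713531, strand +: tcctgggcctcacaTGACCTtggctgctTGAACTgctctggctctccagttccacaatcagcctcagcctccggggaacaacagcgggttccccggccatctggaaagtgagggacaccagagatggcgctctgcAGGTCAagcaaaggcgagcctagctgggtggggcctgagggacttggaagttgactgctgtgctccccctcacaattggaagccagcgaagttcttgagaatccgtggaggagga
Cyp27b1, chr7:64756376-64756625, strand +: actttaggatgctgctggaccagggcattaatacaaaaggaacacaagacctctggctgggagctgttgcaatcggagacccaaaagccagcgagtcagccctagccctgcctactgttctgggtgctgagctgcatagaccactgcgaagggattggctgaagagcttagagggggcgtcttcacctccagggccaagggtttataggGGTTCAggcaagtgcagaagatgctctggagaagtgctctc
Vdr, chr7:130916758-130917007, strand -: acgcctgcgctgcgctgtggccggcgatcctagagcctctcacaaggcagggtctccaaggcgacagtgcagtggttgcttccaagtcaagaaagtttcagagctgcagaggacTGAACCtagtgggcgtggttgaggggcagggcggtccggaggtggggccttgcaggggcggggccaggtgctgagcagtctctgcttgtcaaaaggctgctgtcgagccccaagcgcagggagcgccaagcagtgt
Trpv6, chr4:71489668-71489917, strand -: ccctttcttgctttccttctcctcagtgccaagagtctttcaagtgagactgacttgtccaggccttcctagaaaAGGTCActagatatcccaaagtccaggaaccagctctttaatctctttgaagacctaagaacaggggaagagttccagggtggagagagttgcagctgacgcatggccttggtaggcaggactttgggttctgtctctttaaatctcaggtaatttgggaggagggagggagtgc
Of the 9 genes, 7 had an entry in that table; Cyp24a1 and Thbd had none. A half-site was found before the start of 5 of the 7 (Cyp2r1, Cyp27a1, Cyp27b1, Vdr and Trpv6), and 39.1% of all 33469 entries held one in the same 250 bases. None of the 7 held an exact pair of half-sites pointing the same way with 3 letters between them, the arrangement the receptor prefers, and 0.0926% of all entries did. Half-sites of this kind are shared with other nuclear receptors, and a match is a description of the letters only.

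The libraries held 20680237 to 28784941 counts each. Levels within a gene are given as CPM, counts scaled to a common library size, and levels between genes as TPM, which also corrects for length. Scd and Awat2, lipid genes that define the secreting cells of this gland, averaged 27692 and 11610 TPM in the controls and 27033 and 7380 TPM after UVB, so its defining markers were present. Across all genes, 1787 of 13709 tested passed an adjusted p of 0.05 in edgeR's quasi-likelihood test. Each data column carries a number of its own, but no label says what it stands for or that samples of a group came from separate animals. P-values therefore measure only the spread between these samples. In whole tissue, fewer cells of a type and less RNA per cell cannot be told apart.

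The breakdown enzyme Cyp24a1 was close to absent in control glands and present in every UVB gland. Its counts were 0, 3, 1 and 4 in controls a to d and 24, 89 and 686 in UVB a to c. Every UVB library was above every control, but the UVB libraries were far from each other: UVB c held 85.9% of the group's counts and stood 23.2 times above UVB a and 7.67 times above UVB b after scaling. Pooled over libraries, 799 counts against 8 gave a ratio of 131 (95% exact interval 65.9 to 303, counting error only). Taken one library at a time against the pooled controls, the ratio was 13.5 (5.89 to 34.9) for UVB a, 41.0 (19.9 to 97.9) for UVB b and 315 (159 to 732) for UVB c. Without UVB c it was 28.7 (14.1 to 68), and the mean of the group went from 10.3 ± 14.0 CPM (SD, n = 3) to 2.29 CPM. A count of 0, as in control a, allows up to 0.140 CPM there. Cyp24a1 overlaps a non-coding gene, LOC134486494, in GRCr8, and since the handling of strand is not stated their reads cannot be told apart.

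Cyp27a1, the most abundant of the 4 vitamin D hydroxylase genes, was lower in the UVB glands. It measured 44.6, 65.7, 59.7 and 62.2 CPM in controls a to d and 37.0, 42.5 and 31.2 CPM in UVB a to c. Every UVB library was below every control, although control a lay nearer to UVB b than to the other controls. The group means were 58.0 ± 9.31 CPM (SD, n = 4) and 36.9 ± 5.69 CPM (SD, n = 3). This was a log2 change of -0.65 (SE 0.15). Its upstream sequence, printed above, held 3 of the half-sites, the most of the 4 shown.

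The other hydroxylases of the activating branch showed overlapping groups. Cyp2r1 measured 5.37, 3.27, 3.45 and 4.40 CPM in the controls and 4.83, 4.53 and 2.70 CPM in the UVB libraries. Its log2 fold change of -0.037 (SE 0.25) became 0.19 without UVB c and 0.12 without control a. Part of Cyp2r1 overlaps Pde3b in GRCr8. Cyp27b1, which makes the active hormone, was scarce: its counts were 21, 7, 33 and 24 in the controls and 19, 34 and 32 in the UVB libraries. That is 0.868 ± 0.367 CPM (SD, n = 4) and 1.15 ± 0.220 CPM (SD, n = 3), and its log2 fold change of 0.39 (SE 0.38) was 0.14 without control b, the library with 7 counts.

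Within each library the balance of the 4 hydroxylase genes differed between the groups. Cyp27a1 made up 89.5% to 94.9% of their summed TPM in the controls and 88.5%, 86.4% and 60.7% in UVB a to c. Cyp24a1 made up at most 0.168% in a control and 1.78%, 4.52% and 33.1% in UVB a to c. The TPM of Cyp24a1 was at most 0.304 times that of Cyp27b1 in a control, and 0.953, 1.93 and 15.9 times in UVB a to c. So the transcript for breakdown was below that for activation in every control, about equal to it in UVB a, and above it in UVB b and c. In control b this rested on 3 counts of Cyp24a1 and 7 of Cyp27b1, too few to fix the order there. In UVB a the counts were 24 and 19. The summed TPM of the 4 genes averaged 50.1 ± 7.20 over the 4 controls and 38.2 ± 3.63 over the 3 UVB libraries (± SD), with control a (39.5) inside the UVB range of 34.3 to 41.4.

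**Figure D1:**
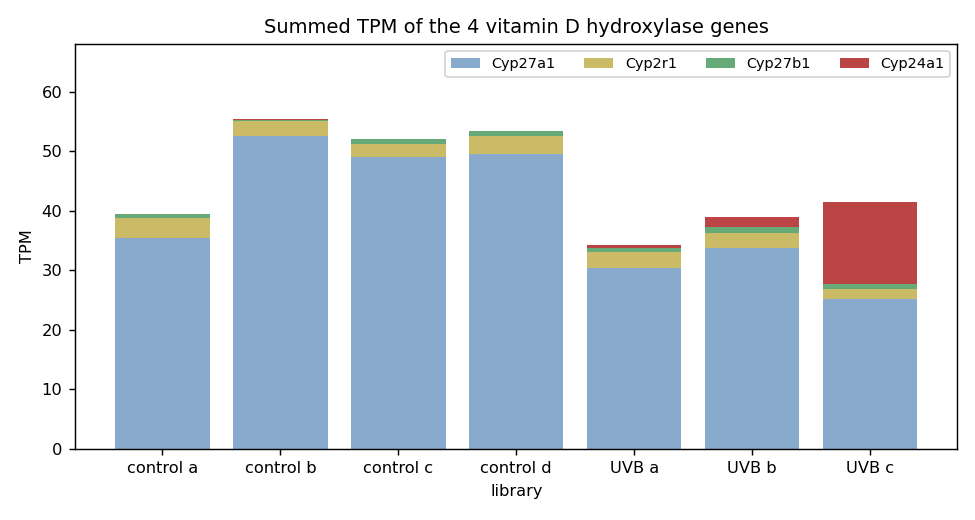
Stacked bars give the TPM of the 4 hydroxylase genes in each library (vertical axis, TPM, from 0). Cyp27a1 fills most of each bar, and Cyp24a1 is visible in UVB a to c and largest in UVB c, at 33.1% of the sum.

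The receptor gene Vdr was well expressed in both groups and its groups overlapped. It measured 31.1, 34.2, 28.3 and 34.9 CPM in controls a to d and 28.8, 25 and 28.2 CPM in UVB a to c. UVB a exceeded control c, and the log2 fold change was -0.23 (SE 0.093). Vdr overlaps LOC108351548, a non-coding gene, in GRCr8.

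Trpv6 was lower in the UVB glands, the opposite side from Cyp24a1. It measured 6.07, 4.95, 4.83 and 4.53 CPM in the controls and 2.28, 2.75 and 4.24 CPM in UVB a to c. The groups did not overlap, but UVB c came close to control d. The means were 5.09 ± 0.673 CPM (SD, n = 4) and 3.09 ± 1.02 CPM (SD, n = 3). In log2 terms this was -0.71 (SE 0.23), and it was -1.01 without UVB c and -0.54 without UVB a. UVB c was thus the library with the most Cyp24a1 and also the UVB library with the most Trpv6. The Trpv6 sequence printed above held 1 half-site.

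Thbd was higher in the UVB glands, mostly in 2 of them. It measured 19.2, 20.4, 18.3 and 18.4 CPM in the controls and 37.0, 21.9 and 35 CPM in UVB a to c. UVB b lay just above control b, and UVB a and c well above it. The means were 19.1 ± 0.983 CPM (SD, n = 4) and 31.3 ± 8.19 CPM (SD, n = 3). That is a log2 change of 0.71 (SE 0.16). Most markers of endothelium, which is known to carry thrombomodulin, were higher as well, with a log2 fold change above 0 in 5 of the 6 tested. Vwf, Tie1 and Cdh5, 3 of the 6, were called higher and 0 were called lower. Beside these, 13.0% of all genes were called in either direction, 6.30% higher and 6.74% lower. The summed TPM of the list was 51.7 to 62.8 in the controls and 72.8, 64.4 and 70.2 in UVB a to c. The count of 3 was 1 without control c, UVB a or UVB c. Their part in the level of Thbd was not tested.

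Fbp1 and Dusp10 were lower in every UVB library than in every control. Fbp1 measured 3.22, 2.99, 3.52 and 4.66 CPM in the controls and 1.28, 0.658 and 2.47 CPM in UVB a to c. UVB b was the lowest and UVB c the nearest to the controls, and the log2 fold change of -1.29 (SE 0.38) ran from -1.91 without UVB c to -0.92 without UVB b. Dusp10 measured 7.28, 7.51, 8.97 and 7.22 CPM in the controls and 4.88, 4.10 and 5.43 CPM in UVB a to c, a log2 fold change of -0.69 (SE 0.15). Its UVB libraries were close together, with a coefficient of variation of 13.9% against 62.6% for Fbp1.

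**Figure D2:**
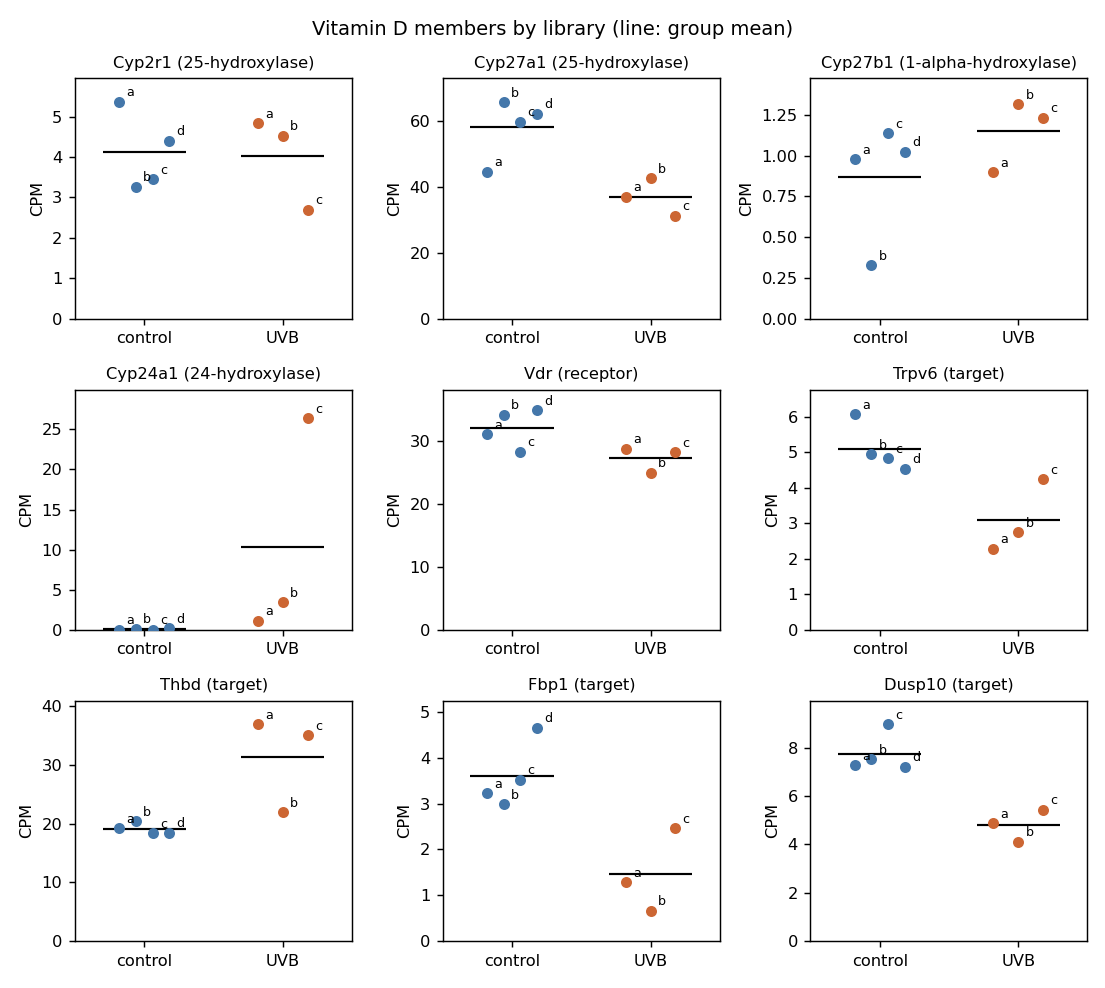
Each panel gives the CPM of 1 gene (vertical axis, from 0) in the 4 control and 3 UVB libraries, with library letters beside the points and a line at the group mean. UVB c stands apart for Cyp24a1 (26.4 CPM), and it is also the UVB library nearest to the controls for Trpv6, Fbp1 and Dusp10.

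All 9 genes passed the filter on low counts, and all had whole counts in every library. Of the 9, 2 (Cyp24a1 and Thbd) passed the adjusted threshold on the higher side and 2 (Cyp27a1 and Dusp10) on the lower side, where 13.0% of all tested genes passed in either direction, 6.30% higher and 6.74% lower. For 6 of the 9, 2 of them higher and 4 lower, no UVB library lay within the control range, against 26.6% of all tested genes (12.8% higher and 13.8% lower). The genes were chosen with this comparison in view, so these counts describe the choice and nothing is read from them. The number past the threshold ran from 0 of 9 without control c, where 6.27% of all genes passed, to 6 of 9 with DESeq2 (17.9%), which added Trpv6 and Fbp1. Over the 15 alternatives, Dusp10 passed in 13, Cyp27a1 and Thbd in 10 each, and Cyp24a1 in 8.

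**Figure D3:**
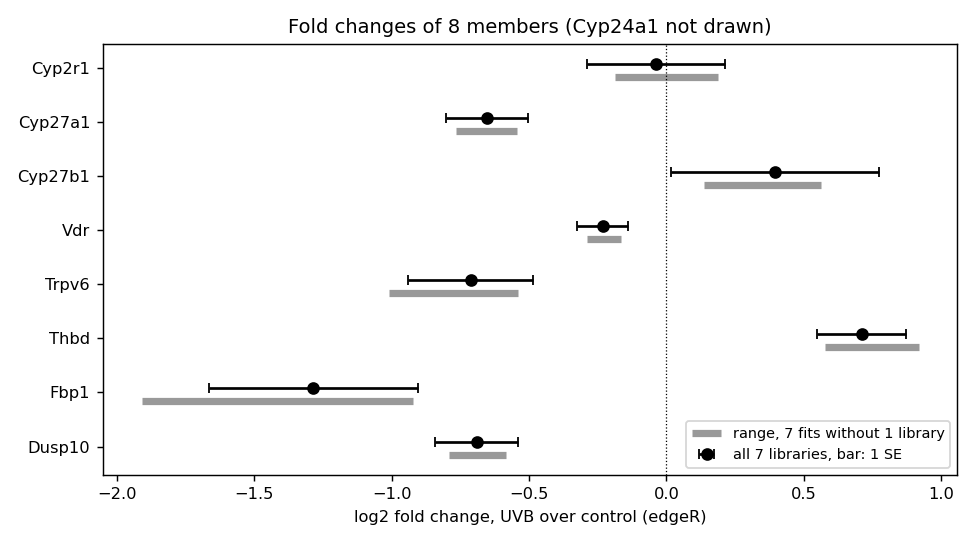
Points give the log2 fold change of UVB over control for 8 of the genes (horizontal axis) with bars of 1 SE, and grey bars the range over 7 fits that each left out 1 library. The ranges of Cyp27a1, Vdr, Trpv6, Fbp1 and Dusp10 stay below 0 and those of Thbd and Cyp27b1 above 0, while that of Cyp2r1 spans 0, from -0.19 to 0.19. Cyp24a1 is not drawn. Its log2 fold change was 6.86 with all libraries and ran from 4.70 to 7.42 over the same 7 fits.

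In order of TPM, the controls ran Cyp27a1 (46.6 ± 7.67, SD, n = 4), Vdr (26.9 ± 2.29), Thbd (7.16 ± 0.334), Dusp10 (4.81 ± 0.595), Fbp1 (4.42 ± 0.896), Trpv6 (2.92 ± 0.367), Cyp2r1 (2.84 ± 0.540), Cyp27b1 (0.605 ± 0.257) and Cyp24a1 (0.0450 ± 0.0420). The library ranges of neighbours overlapped for Dusp10 with Fbp1 and for Trpv6 with Cyp2r1, and for no other neighbours. Cyp27a1 stood above 82.9% of all genes and Vdr above 72.7%, while Cyp27b1 stood above 23.4%. In the UVB glands the first 3 places were the same, Cyp24a1 came next by its mean (5.35 ± 7.24 TPM, SD, n = 3), and all neighbours from Thbd down to Trpv6 overlapped. The coefficient of variation among controls was 16% for Cyp27a1 against a median of 6.04% over the 1401 genes of similar count, and 5.15% for Thbd against 8.02% over 1392. Among UVB libraries it was 26.2% for Thbd, 33.2% for Trpv6 and 62.6% for Fbp1, against medians of 9.16%, 17.0% and 18% for genes of similar control count. Matching used control counts only: Fbp1 had 64 to 109 counts in controls and 17 to 64 in UVB libraries, and Trpv6 106 to 140 and 48 to 110. Cyp2r1 (28.8% against 17.6%), Cyp27a1 (15.4% against 6.52%) and Cyp24a1 (135% against 87.9%) were also above their medians. Dusp10 (13.9% against 13.4%) and Vdr (7.49% against 7.68%) were near theirs, and Cyp27b1 (19.1% against 30.3%) was below.

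The genes whose profile over the 7 libraries lay nearest to that of Cyp24a1, by the root mean square difference of centred log2 CPM, were Cpxm1 (1.26), Car2 (1.34), Sh2d5 (1.38) and Sprr1b (1.45). Cpxm1, which encodes a carboxypeptidase-like protein, had 5.31 to 9.05 CPM in the controls and 109, 56.4 and 151 CPM in UVB a to c. Car2, a carbonic anhydrase gene, measured 33.4, 52.1 and 82.3 CPM in UVB a to c, and Sprr1b, a cornified envelope gene, 22.2, 21.6 and 30.7 CPM, so none of these had the 23.2-fold spread of Cyp24a1 within the UVB group. The nearest to Trpv6 were Pde8b (0.12), Derl3 (0.16), Ccser1 (0.16) and Cited4 (0.16). Cited4, which encodes a transcriptional coactivator, had 11.0 to 13.1 CPM in the controls and 7.25, 6.89 and 10.7 CPM in UVB a to c. These genes were picked for likeness over the same 7 libraries, so a shared pattern follows from the choice.

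**Figure D4:**
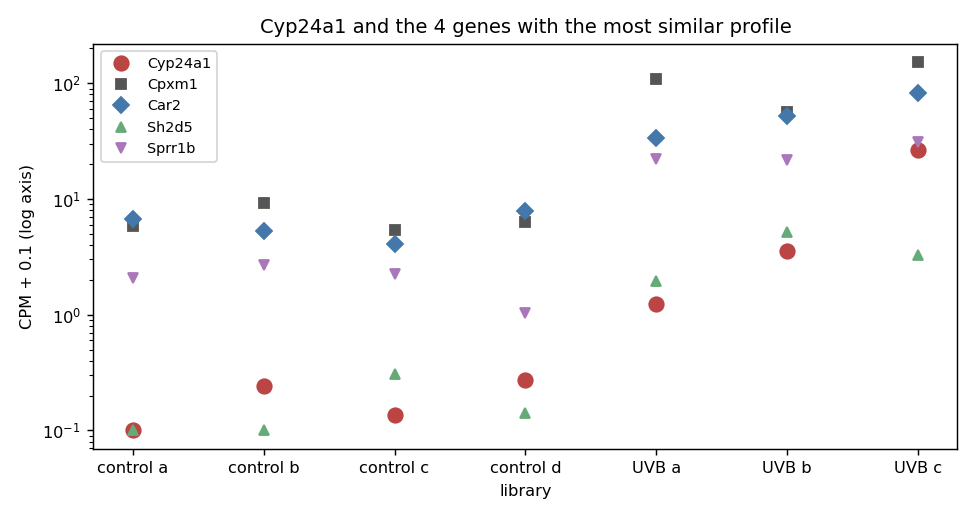
Points give CPM + 0.1 on a log axis for Cyp24a1 and the 4 genes with the nearest profile in each of the 7 libraries (horizontal axis). All 5 genes are higher in the UVB libraries, which for the 4 follows from their choice by likeness. Cyp24a1 differs most among the UVB libraries, from 1.14 CPM in UVB a to 26.4 CPM in UVB c.

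Neighbouring genes were compared after the values had been seen. Of the 18 nearest tested protein-coding genes on either side of the 9 genes, 1 was called higher and 1 lower. Of all tested genes, 13.0% were called, 6.30% higher and 6.74% lower. The count among neighbours is near that share, and nothing is read from it. Beside Trpv6, the receptor kinase family gene Ephb6 fell from 61.8 to 39.5 CPM (log2 fold change -0.64, SE 0.11, edgeR adjusted p = 0.00934), and passed in each of its 15 alternatives. Beside Thbd, the endothelial receptor gene Cd93 rose from 22.5 to 33.0 CPM (0.55, SE 0.15, adjusted p = 0.0494), a call lost in 12 of its 15 alternatives, including each one with a library left out except control d. The neighbours of Cyp24a1 did not pass: Bcas1 had a log2 fold change of -0.25 (SE 0.36, adjusted p = 0.695) and Pfdn4 0.37 (SE 0.15, adjusted p = 0.126).

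Around these genes, 8 lists of the pathway held 116 genes in the tables, of which 103 were tested. In all, 16 of the 103 were called higher and 14 lower, 29.1% against 13.0% of all genes, with a median log2 fold change of 0.015 beside -0.0058 for all genes. The lists were also chosen with results of these data known. The total of 30 was 17 without control c. The 14 lower genes became 6 without UVB b, 7 without control c, 9 without control d and 9 without UVB c. In the same fits the share of all genes called in either direction fell from 13.0% as well. It was 7.57% without UVB b, 6.27% without control c, 6.91% without control d and 8.47% without UVB c.

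Among genes that supply, carry and serve the hydroxylases, 3 were higher. Of 10 tested, 3 (30.0%, against 13.0% of all genes in either direction) were called higher and 0 lower, with a median log2 fold change of 0.23. Of the 3, 1 remained without control c, control d or UVB a. Ebp, a sterol isomerase of cholesterol synthesis, rose from 218 ± 14.7 CPM in the 4 controls to 315 ± 38.8 CPM in the 3 UVB libraries (± SD). On the log2 scale the change was 0.53 (SE 0.089, edgeR adjusted p = 0.00781). Dab2, an endocytic adaptor for receptors that take up vitamin D with its carrier, rose by 0.90 (SE 0.18, adjusted p = 0.0187), a call lost without control c, control d or UVB a. Those receptor genes, Lrp2 (-0.83, SE 0.29, adjusted p = 0.0955) and Cubn (-1.11, SE 0.37, adjusted p = 0.0747), did not pass. Dhcr7, the reductase that uses up the precursor of vitamin D, measured 1580 ± 155 CPM (SD, n = 4) and 1919 ± 174 CPM (SD, n = 3). It did not pass in edgeR (0.28, SE 0.099, adjusted p = 0.0948). With DESeq2 it passed (DESeq2 adjusted p = 0.0302), and 4 genes of the list were called higher. Fdx1 (0.11), Fdxr (0.17) and Por (0.067), which carry electrons to the hydroxylases, did not pass. Macrophages also express Dab2, and 3 of 8 macrophage markers were called higher (37.5%, against 13.0% of all genes in either direction). That count was 2 without control a, c or d or UVB a or c, and 1 marker was called lower without control a. A log2 fold change above 0 was seen in 5 of the 8 markers. Their summed TPM was 162 to 473 in the controls and 178 to 299 in the UVB libraries. The part of macrophages in Dab2 was not tested.

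Among partners of the receptor, the share called was near that of all genes. Of 14 tested, 0 were called higher and 2 lower, or 14.3% against 13.0% of all genes. Ncoa1 fell by 0.29 on the log2 scale (SE 0.059, edgeR adjusted p = 0.0155) and Ncoa2 fell by 0.33 (SE 0.060, adjusted p = 0.0106). Neither gene's groups overlapped, and both kept their calls in all 15 alternatives. Counts of Ncoa2 were not whole in 3 libraries. Rxra, the main retinoid X receptor of skin, measured 179 ± 13.5 CPM (SD, n = 4) and 175 ± 15.4 CPM (SD, n = 3). This was a log2 change of -0.035 (SE 0.081, adjusted p = 0.812). Hr, a corepressor of the receptor in hair follicle, had -0.13 (SE 0.11, adjusted p = 0.473).

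Other genes reported as receptor targets in at least some cells were called in both directions. Of 25 tested, 5 were called higher and 5 lower (40.0% in all, against 13.0% of all genes), with a median log2 fold change of -0.011. Klk6, an epidermal protease gene, measured 23.3, 26.1, 20.9 and 24 CPM in the controls and 79.3, 65.6 and 132 CPM in UVB a to c. It rose by 1.97 on the log2 scale (SE 0.23, edgeR adjusted p = 0.00402), and UVB c was highest, as for Cyp24a1. Cd14, a co-receptor for bacterial lipopolysaccharide, rose from 12.6 ± 1.87 CPM in the 4 controls to 23.4 ± 2.50 CPM in the 3 UVB libraries (± SD). In log2 terms this was 0.89 (SE 0.13, adjusted p = 0.00453). Ninj1 (0.58, SE 0.11, adjusted p = 0.0132), a gene of membrane rupture, Il1rl1 (1.19, SE 0.26, adjusted p = 0.0199), the interleukin 33 receptor gene, and G0s2 (0.51, SE 0.13), an inhibitor of lipolysis, completed the 5. Cst6, a protease inhibitor of cornifying epithelium, fell from 1340 ± 273 CPM in the 4 controls to 553 ± 162 CPM in the 3 UVB libraries (± SD). That is a log2 change of -1.28 (SE 0.24, adjusted p = 0.0165). Sema3b (-0.73, SE 0.17, adjusted p = 0.0245), the redox gene Txnip (-0.79, SE 0.18), the cell cycle inhibitor gene Cdkn1b (-0.32, SE 0.074) and Bmp6 (-0.59, SE 0.16) were the other 4 lower; Txnip, Cdkn1b, Bmp6 and G0s2 are named after their values were seen. Counts of Sema3b were not whole in any library. The 5 lower genes became 1 without UVB b, 2 without control c or control d and 3 without UVB a or UVB c, and the 5 higher became 3 without control c or UVB a. The calls of Il1rl1 and Sema3b were lost in 4 of 12 and 6 of 15 alternatives, among them those without control c, control d or UVB c. Cd14 is also a macrophage gene, beside the marker values given above.

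Of the calcium genes that usually accompany Trpv6 in vitamin D responsive epithelium, Trpv5 and Calb1 were at the limit of detection and S100g was low. Trpv5, the sister channel of kidney, had 1 count in control a and 0 in the other 6 libraries. Calb1, a calcium-binding protein gene, had 1 count in UVB a and 0 elsewhere, and a count of 0 allows 0.103 to 0.142 CPM in these libraries. S100g, the small calbindin gene, had 1, 9, 11 and 5 counts in the controls and 14, 10 and 8 in the UVB libraries, which overlapped. Among calcium channels, stores and pumps, 0 of 16 tested genes were called higher and 4 (25%) lower, with a median log2 fold change of -0.22. Of all genes 13.0% were called in either direction. The plasma membrane pump gene Atp2b4 fell from 292 ± 16.8 CPM in the 4 controls to 182 ± 12.4 CPM in the 3 UVB libraries (± SD). On the log2 scale the change was -0.68 (SE 0.072, edgeR adjusted p = 0.00157), and the gene kept its call in all 15 alternatives. Its relative Atp2b1, a receptor target in gut, did not pass (-0.076, SE 0.064, adjusted p = 0.465). The 3 Itpr genes, the only genes in the list for calcium release channels of internal stores, all fell. Itpr3 fell by 0.41 (SE 0.069, adjusted p = 0.00797), Itpr2 by 0.35 (SE 0.081, adjusted p = 0.0233) and Itpr1 by 0.39 (SE 0.10, adjusted p = 0.0336). The calls of Itpr2 and Itpr1 were lost in 7 and 8 of their 15 alternatives, among them those without control b, control c or UVB b, and counts of Itpr3 were not whole in 4 libraries. The list's count was 2 without UVB b or control c.

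Among relatives of Dusp10 and the kinases they act on, genes were called on both sides. Of 11 genes of MAP kinases and their phosphatases, 3 were called higher and 1 lower (36.4% in all, against 13.0% of all genes). The lower count was 3 with DESeq2. Dusp6 (0.90, SE 0.16, edgeR adjusted p = 0.0105), Dusp4 (0.58, SE 0.11, adjusted p = 0.0123) and Dusp7 (0.51, SE 0.080, adjusted p = 0.00637), which act chiefly on ERK kinases, rose, and passed in all 15 alternatives. Dusp16, which like Dusp10 acts on JNK and p38 kinases, fell by 0.38 on the log2 scale (SE 0.088, adjusted p = 0.0247), a call lost in 6 alternatives, among them those without UVB a, b or c. Counts of Dusp6 were not whole in any library.

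Genes that work with thrombomodulin were also called. Of 10 tested genes of the protein C and clotting list, 4 were called higher and 1 lower (50% in all, against 13.0% of all genes). The median log2 fold change was 0.21. Procr, the endothelial protein C receptor gene, rose from 8.02 ± 0.730 CPM in the 4 controls to 13.7 ± 1.45 CPM in the 3 UVB libraries (± SD). This was a log2 change of 0.78 (SE 0.12, edgeR adjusted p = 0.00636). The fibrinolysis genes Plaur (1.10, SE 0.23, adjusted p = 0.0169) and Plat (0.85, SE 0.18, adjusted p = 0.02) rose as well, Plat losing its call without control c. F3, which encodes tissue factor, the trigger of clotting, fell from 55.2 ± 6.68 CPM in the 4 controls to 34.1 ± 7.30 CPM in the 3 UVB libraries (± SD). In log2 terms this was -0.70 (SE 0.15, adjusted p = 0.0202), lost in 4 of 15 alternatives, those without control c, control d, UVB b or UVB c. The endothelial marker values given with Thbd stand beside Procr and Plat too.

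Among inputs to the hydroxylases, 1 of 8 tested genes was called, or 12.5% against 13.0% of all genes. It was Tgfb1, a growth factor gene, which rose by 0.40 (SE 0.086, edgeR adjusted p = 0.0187), a call lost without control c or UVB a. Of 11 genes around fructose bisphosphate, 1 was called (9.09%, also against 13.0%), the glycolytic regulator gene Pfkfb3 (-0.31, SE 0.090, adjusted p = 0.0485), which lost its call in 10 of 15 alternatives, including each one with a library left out. Fbp2, the muscle form next to Fbp1, measured 29.4 and 29.0 CPM in the group means and did not pass (-0.023, SE 0.090, adjusted p = 0.892).

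**Figure D5:**
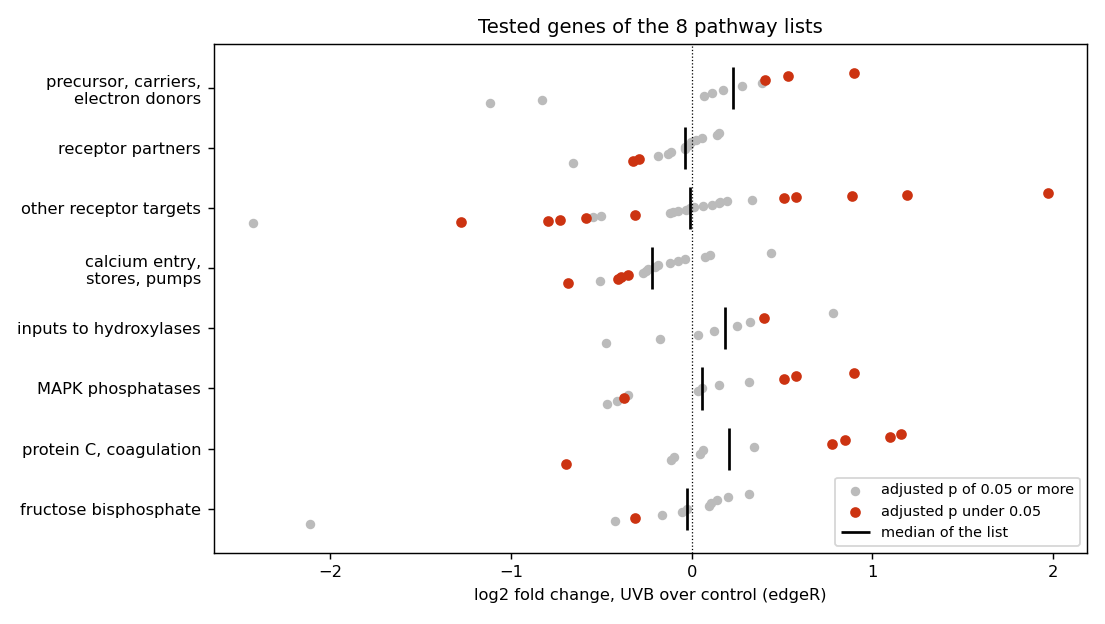
Each point is a tested gene of 1 of the 8 lists (rows) at its log2 fold change of UVB over control (horizontal axis), red where the adjusted p was under 0.05, with a black line at the list's median. Red points of the receptor targets lie on both sides of 0, at 5 higher and 5 lower, and the 4 of the calcium list lie below 0.

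Markers of several other cell types differed between the groups as well. Beside the counts here and in the next paragraph, 13.0% of all tested genes were called, 6.30% higher and 6.74% lower. Of 7 meibocyte markers tested, 0 were called higher and 2 lower, Awat2 (log2 fold change -0.66, SE 0.093, edgeR adjusted p = 0.00453) and the lipid droplet gene Plin2 (-0.45, SE 0.077, adjusted p = 0.00827), and the count was 2 in all 15 alternatives. Their summed TPM overlapped, at 42399 to 51335 in the controls and 38391 to 44929 after UVB. Of 5 fibroblast markers 3 were called higher, with a median log2 fold change of 0.91 and overlapping sums of 649 to 1013 and 867 to 1452 TPM. The fibroblast count was 2 without control b, c or d or UVB a or c. Of 5 neutrophil markers 3 were tested and 2 called higher, with sums of 1579 to 1776 TPM in the controls and 1840 to 2115 TPM after UVB. In no library did 1 of the 5 have a count, and 2 reached a mean count of 50, so these sums rest on few genes. Whether the sums come from neutrophils was not tested. The count of 2 called higher was 1 without any single control, UVB b or UVB c.

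Basal keratinocyte markers summed to 8109 to 10332 TPM in the controls and 10579 to 11685 TPM after UVB, and 3 of 6 were called higher, a count that was 1 without control c or UVB c. Of 5 suprabasal keratinocyte markers 0 were called higher and 1 lower. The count of lower genes was 2 without UVB b or UVB c, and that of higher genes was 2 with DESeq2. The suprabasal groups overlapped, but UVB c had the highest sum, 6929 TPM against 4309 to 5198 TPM in the other 6 libraries, beside its high Cyp24a1 and Klk6. Melanocyte markers summed to 63.5 to 121 TPM in the controls and 48.0 to 57.0 TPM after UVB, with 1 of 3 called lower, a count of 0 without control b, c or d or UVB a or b, of 2 without control a and of 3 with DESeq2. Mast cell markers summed to 19.0 to 26.9 and 31.3 to 32.5 TPM, with 1 of 4 called higher, a count of 0 without control c or UVB c and of 2 with DESeq2. Of T cell markers 1 of 3 was called higher, a call kept when control b was left out and lost when any other single library was. Of 4 muscle markers 0 were called by edgeR or DESeq2, and 0 had an unadjusted edgeR p under 0.05. The part of these differences in the levels of the vitamin D genes was not tested.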

How the data were processed

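RNA sequencing libraries of rat meibomian gland, 4 control and 3 UVB, were analysed. The authors deposited expected counts (estimated counts per gene, called raw, 12.5% of them not whole) and TPM values per gene. The submitters' processing notes name FastQC, Trimmomatic, DRAGEN, Picard and build rn7, with no role or version; annotation and strand are not given in the sources used here. Gene names with unquoted commas shifted cells in 2280 rows, so values were taken by counting cells back from each row's last one, and 5 rows lacking a value were left out, leaving 17246 genes. The design assumed raw counts; expected counts were rounded and the same test was kept.

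Counts were tested in edgeR 4.0.16 (R 4.3.3; quasi-likelihood, robust, TMM, filterByExpr, 13709 genes), two-sided, Benjamini-Hochberg adjusted over all genes, threshold 0.05. Standard errors were derived from the fold change and the root of F. Alternatives used DESeq2 1.42.0, limma 3.58.1 on log2(TPM + 1) or log2(TPM + 0.1), other scalings and filters, and each library left out. The fits were tested on simulated data. Intervals are 95% Clopper-Pearson and the floor is 3 counts; both cover counting error only. No library pair in a group agreed within sampling noise (chi-square per degree of freedom at least 10.9).

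The genes and lists were chosen with earlier results of these data known, so the calls and folds of the 9 genes, which are part of the fit over all genes, are given as a description. Of 190 listed symbols, 17 were not analysed here. Named genes were the 9, 7 of 8 further genes fixed whatever their values (Gc was not analysed here), up to 6 called genes per list by smallest p, and the 4 nearest profiles to Cyp24a1 and to Trpv6. Some genes that this rule selects are not reported here. Gene overlaps and neighbours are from RefSeq GRCr8, used for names only, apart from the printed upstream sequences.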

Additional observations from a re-analysis of the deposited data

Results flagged for a closer look

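The spread over the 4 controls was examined for 49 genes, and in 4 of them a single control lay well away from the rest; about 1 in 20, or 2.45 genes, would do so by chance. Dusp10 stood at 8.97 CPM in control c, beside 7.22 to 7.51 CPM in the others, and its log2 fold change was -0.61 without that library in place of -0.69. Atp2b4 stood at 317 CPM in control c, beside 283 to 285 CPM, and its change was -0.64 without it (edgeR adjusted p = 0.00576). Ncoa2 measured 75.0 CPM in control a against 78.8 to 79.5 CPM, and its change was -0.34 without it (edgeR adjusted p = 0.0117). Trpv5 had its only count in control a, at 0.0467 CPM. Groups of 3 were not examined in this way, so the distance of UVB c from the other UVB libraries for Cyp24a1 is given as values only.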

How the results depend on the processing

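No paired analysis was possible because no column name could be matched to a numbered sample. Over the 7 fits that each left out 1 replicate, the genes that differ ran from 851 to 1898 in all, 421 to 927 higher and 430 to 971 lower. The pathway genes called ran from 17 to 31 in all, 10 to 16 higher and 6 to 15 lower. Under log2(TPM + 1) without a filter, 571 genes and 8 pathway genes were lower; the cause was not tested. The other settings moved these counts by at most 1.5 times, up to 2451 genes with DESeq2. The log2 fold change of Rxra became 0.012 without control a and 0.023 without UVB a, and ran from -0.099 to 0.023 with 1 library left out. That of Cyp24a1 was 4.23 under log2(TPM + 0.1) and 1.95 under log2(TPM + 1), as the added constant sets a gene near 0, and 4.70 without UVB c against 6.86 with all libraries. Cyp27b1 fell under the filter in 3 alternatives and had no value there. Depth limits Cyp24a1 in controls, Cyp27b1, S100g, Calb1 and Trpv5, each with few counts per library.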
